A study of Arabidopsis thaliana with 25 samples.

Results

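The transcripts described here stood far higher in shoots than in roots of normoxic Arabidopsis seedlings and kept their shoot level when oxygen was withdrawn. They were chosen from the array values by 3 conditions on single-gene probe sets of nuclear genes. The mean of the normoxia shoot arrays had to exceed the mean of the normoxia root arrays by at least 5 log2 units in each of 3 genotypes. The mean of the hypoxia shoot arrays had to lie within 0.5 of the normoxia mean in each genotype. The difference between the overexpressor and the wild type, averaged over 4 pairs of organ and treatment, had to stay within 0.7. The photosynthesis genes PSBW, PSAN, PRK and RCA were left out by name. These conditions left 31 of 13367 single-gene nuclear probe sets (13217 genes), and of 22746 probe sets in all, reading 31 different protein-coding genes. The organ condition was met by 105 of all probe sets, 39 of them single-gene and nuclear, and the others were not considered.

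Levels came from 25 Affymetrix ATH1 arrays of Col-0 seedlings aged 10 days, raised on vertical plates with 1% sucrose under long days. Whole seedlings were held in argon of 99.998% (hypoxia) or in an open box (normoxia, mock) and then cut into root and shoot. Both treatments lasted 2 h by the treatment protocol, but the hypoxia samples carry 9 h in their source names, and the true duration is uncertain. The genotypes were the wild type (WT), mpk6, in which a T-DNA insertion knocks out the MPK6 gene of a MAP kinase, and MPK6ox, labelled as a T-DNA insertion line with 35s::MPK6, in which a constitutive viral promoter drives the gene in most tissues. How many independent lines or how many pooled seedlings stood behind an array was not given in the sources used here, and MPK6 itself was not analysed here. Genotype, organ and treatment made 12 groups of 2 arrays each, apart from MPK6ox hypoxia roots with 3. The titles call the arrays biological replicates without saying that they came from separate sowings, so p-values measure only the spread between these samples.

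Photosynthesis genes in the nucleus encode proteins that are imported into the chloroplast, where photosystems, antennae and the Calvin cycle are assembled around plastid-encoded partners. Their transcripts are abundant in green tissue and low in roots, whose plastids are mostly non-green. Low oxygen stops mitochondrial respiration, and plant cells then hold back much of their metabolism and induce fermentation and a small set of response genes.

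Of the 31 genes, 10 carried a symbol in the annotation and 21 only a locus tag. The named ones were PSB27, an assembly and repair factor of photosystem II, PSBY, a small photosystem II protein, PSAE-1, a stromal subunit of photosystem I, and LHCB4.2, a form of the minor antenna protein CP29. LIL3:1 encodes a light-harvesting-like protein of chlorophyll synthesis, CaS a calcium-sensing protein of the thylakoid, and SBPASE the Calvin cycle enzyme sedoheptulose-bisphosphatase. HPR encodes the peroxisomal hydroxypyruvate reductase of photorespiration, ALDH11A3 a cytosolic glyceraldehyde-3-phosphate dehydrogenase that does not phosphorylate its substrate, and CCL a clock-regulated transcript known for rapid decay. AT1G52220 had the synonym CURVATURE THYLAKOID 1C, a protein that shapes thylakoid membranes. The other loci had no name in the annotation used here and are given no role. No members were neighbours on a chromosome, the closest pair, AT3G47070 and AT3G47250, being 25 genes apart in the annotation.

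**Figure D1:**
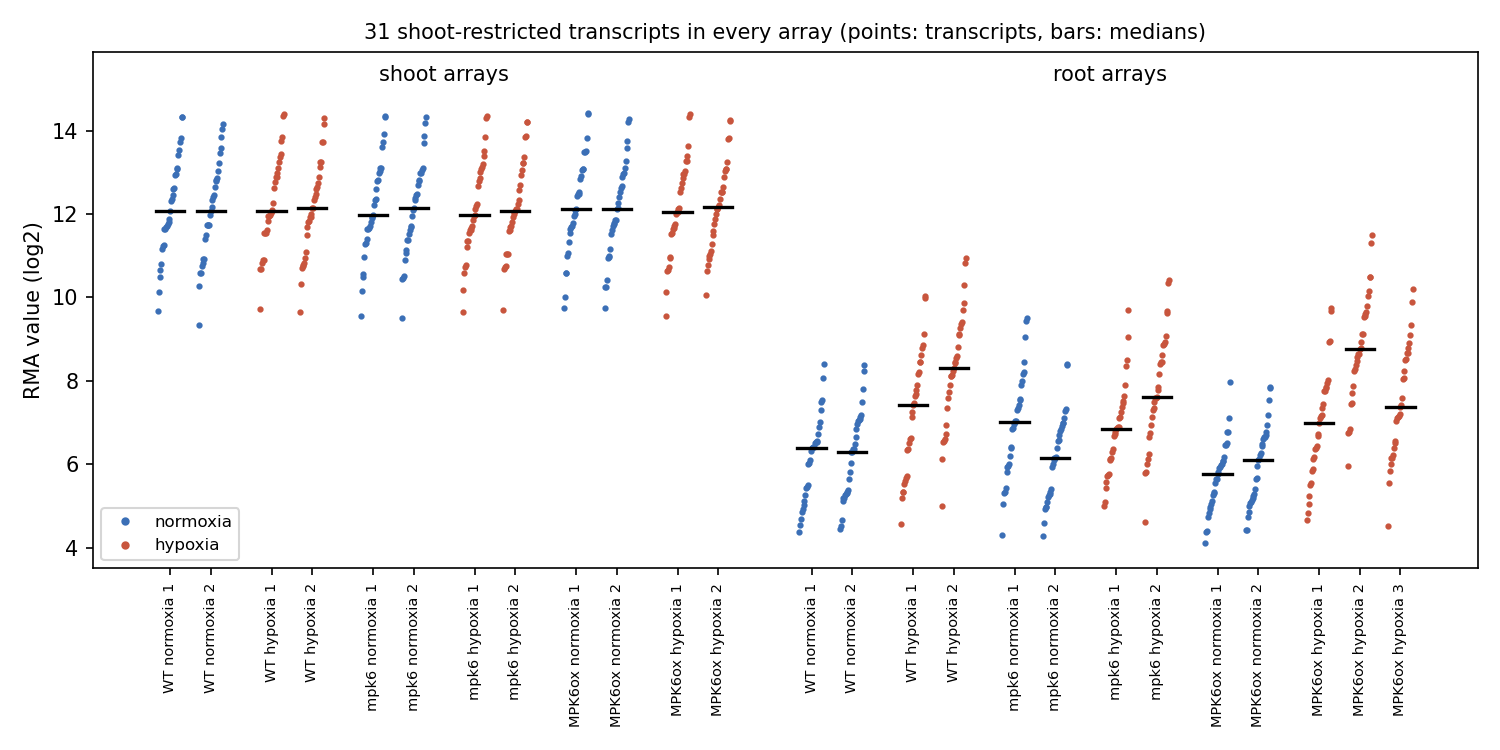
Log2 RMA values (y axis) of the 31 shoot-restricted transcripts in each of 25 arrays (x axis, by organ, genotype, treatment and replicate), with points for transcripts sorted by value and bars for the array median. The 12 shoot medians lie between 11.97 and 12.18, and the 13 root medians between 5.77 and 8.77.

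In shoots the set was flat, as the rule required, and these values are given as a description without a test. The median of the 31 values lay between 11.97 and 12.18 in all 12 shoot arrays. The median change with hypoxia was 0.07 in WT shoots, 0.02 in mpk6 and 0.02 in MPK6ox. PSB27 had the narrowest shoot range, from 12.41 to 12.66 with a median of 12.59 over 12 arrays, and CCL the widest, from 12.08 to 13.50 with a median of 13.05. The members nearest to the limit on shoot change were AT3G20820, whose largest shoot change was 0.46 in size, and AT5G38980 at 0.45, and the first ones beyond it were AT3G19850 at 0.56 and AT2G25510 at 0.57. The stability limit cost 6 genes that met the organ condition, AT3G19850, AT2G25510, ECS1, PORB, AT3G62550 and AT1G29660.

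The organ difference in normoxia ranged, as a mean over genotypes, from 5.20 for AT3G20820, a 36.7-fold ratio, to 7.06 for AT1G09310, a 133-fold ratio, with a median of 5.96. After AT1G09310 came AT2G10940 and AT1G23130, both at 6.61, SBPASE at 6.53 and CaS at 6.51. Just inside the limit stood AT1G51110 and AT3G20820, both with a smallest difference of 5.02, and just outside it PIFI at 4.86 and TROL at 4.87. The rule itself set the organs apart in normoxia and held the hypoxia shoots near their normoxia level, so the gap between arrays is a description. The lowest shoot array exceeded the highest root array, hypoxia roots included, for every member, by 1.93 for CCL up to 3.65 for AT3G61870. The share of all probe sets with such a gap was not counted. The labels of the organs were checked on 3 measured root markers. The root-hair expansin genes EXPA7 and EXPA18 read 9.01 to 10.90 in normoxia roots and 5.25 to 6.27 in normoxia shoots, while the beta-glucosidase gene PYK10 stood high in both organs (14.47 to 14.78 and 13.57 to 13.92).

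In roots the same transcripts were not flat. All 31 had a higher mean in hypoxia than in normoxia in each genotype, with median log2 changes of 1.50 in WT roots, 0.71 in mpk6 roots and 1.69 in MPK6ox roots, where the median over all probe sets was -0.01, 0.02 and -0.01. By limma with Benjamini-Hochberg adjustment over all 22746 probe sets, 9 of the 31 rose in WT roots, 0 in mpk6 roots and 19 in MPK6ox roots, and 31 rose in the mean of the 3 genotypes. Over all probe sets, 2.55% were called higher in WT roots, 3.71% in mpk6, 4.28% in MPK6ox and 9.50% in the mean of the genotypes. At an unadjusted p under 0.05 the counts were 27, 3, 31 and 31 of 31, where 6.82%, 12.2%, 9.26% and 15.6% of all probe sets were higher at that p. The mpk6 count was thus no larger a share than that over all probe sets. The normoxia root arrays in these changes also chose the members, as low there, and how far that choice raises the changes was not tested. Tissues were measured whole, so that a change in the share of a cell type and a change in RNA per cell cannot be told apart. Calls over all probe sets moved when a single array was left out. In WT roots 7.17% were called either way without MPK6ox root hypoxia replicate 2, against 2.55% higher and 3.95% lower in the main fit. The counts of members moved as follows. The WT count was 0 without WT root hypoxia replicate 2, 14 without WT root hypoxia replicate 1, 2 and 3 without WT root normoxia replicates 1 and 2, and 16 and 19 without MPK6ox root hypoxia replicates 1 and 2, which enter the shared error. The MPK6ox count was 8 without MPK6ox root normoxia replicate 1, and the mpk6 count was 1 without MPK6ox root hypoxia replicate 2.

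**Figure D2:**
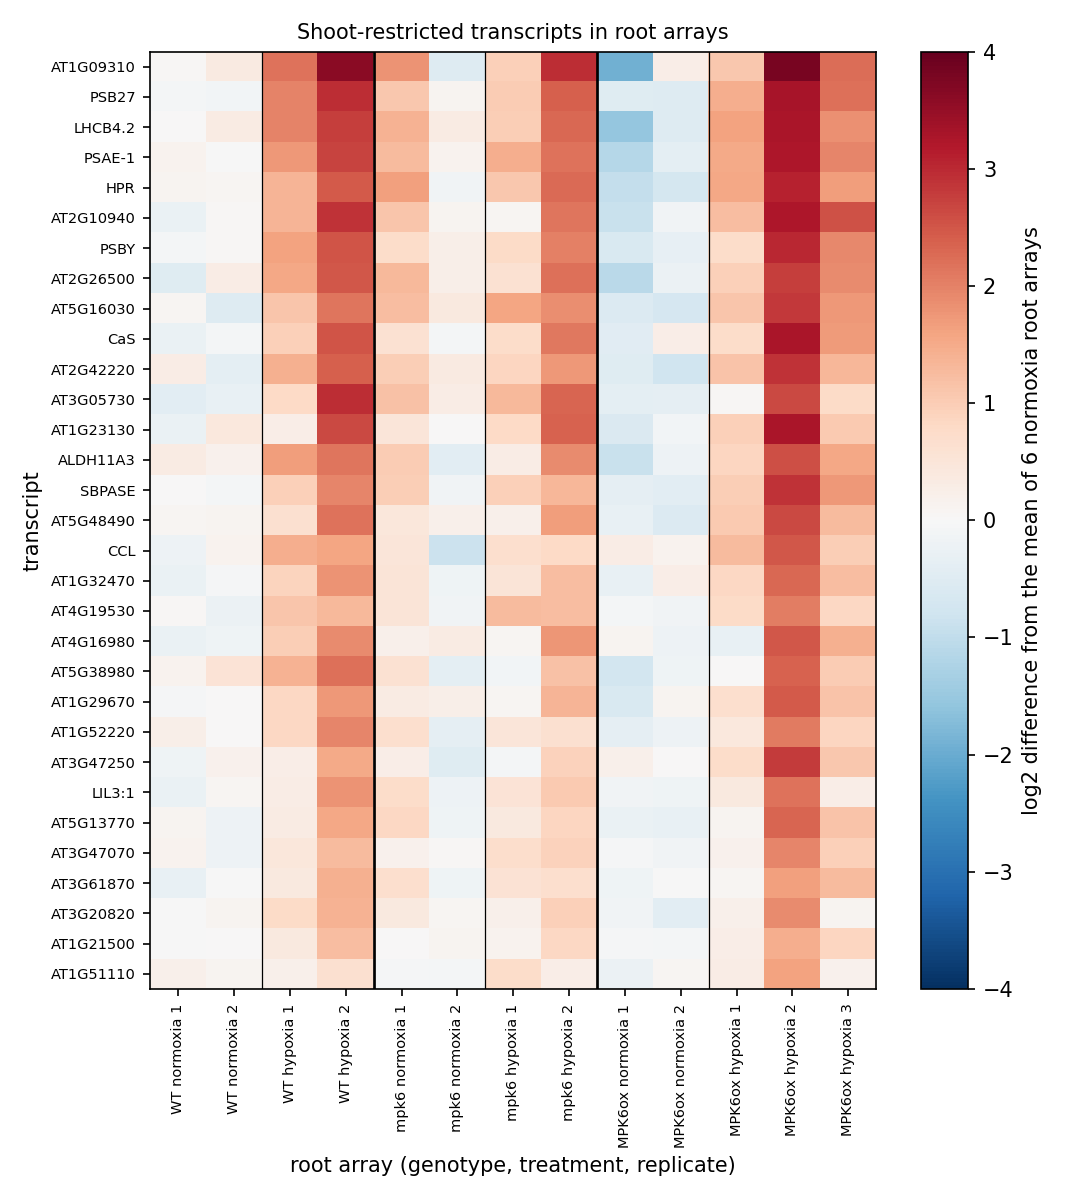
Log2 difference of each of 31 shoot-restricted transcripts (rows, ordered by mean root change) in each of 13 root arrays (columns) from its mean over the 6 normoxia root arrays, in colour. Replicate 2 of MPK6ox hypoxia is the highest root array for 30 of the 31 transcripts, and mpk6 normoxia replicate 1 stands above mpk6 normoxia replicate 2 for most rows.

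Both photosystem II genes rose in WT and MPK6ox roots. PSB27 read 6.41 and 6.36 in WT normoxia roots and 8.45 and 9.42 in WT hypoxia roots. In mpk6 it read 7.54 and 6.57 in normoxia and 7.47 and 8.87 in hypoxia, and in MPK6ox 6.0 and 5.95 in normoxia and 7.94, 9.79 and 8.66 in hypoxia. The hypoxia arrays thus lay above the normoxia arrays in WT and MPK6ox and overlapped them in mpk6. The limma change of PSB27 was 2.55 ± 0.48 (SE, adjusted p = 0.0033), a 5.85-fold rise, in WT roots, 2.82 ± 0.44 (adjusted p = 0.000436) in MPK6ox and 1.12 ± 0.48 (adjusted p = 0.154) in mpk6. In the mean of genotypes PSB27 rose by 2.16 ± 0.27 (adjusted p = 1.48e-05). PSBY read 6.52 and 6.65 in WT normoxia and 8.21 and 9.13 in WT hypoxia roots, and 5.98 and 6.27 against 7.34, 9.60 and 8.51 in MPK6ox roots. In mpk6 roots it read 7.34 and 6.84 against 7.38 and 8.61, so its hypoxia arrays were the higher ones in all 3 genotypes, in mpk6 by a small margin. It rose by 2.08 ± 0.50 (adjusted p = 0.0177) in WT and by 2.36 ± 0.46 (adjusted p = 0.00275) in MPK6ox.

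The photosystem I gene and the antenna gene moved in the same way. PSAE-1 read 8.40 and 8.23 in normoxia and 9.98 and 10.94 in hypoxia in WT roots, 9.50 and 8.38 against 9.70 and 10.41 in mpk6, and 7.10 and 7.86 against 9.75, 11.49 and 10.20 in MPK6ox. In each genotype all its hypoxia arrays were above its normoxia arrays, and the MPK6ox hypoxia array 2 was the highest root array. PSAE-1 rose by 2.15 ± 0.46 (adjusted p = 0.00903) in WT and by 3.00 ± 0.42 (adjusted p = 0.000166) in MPK6ox, an 8.00-fold rise. LHCB4.2 read 8.08 and 8.39 against 10.04 and 10.82 in WT, 9.43 and 8.39 against 9.04 and 10.36 in mpk6, and 6.50 and 7.53 against 9.67, 11.32 and 9.89 in MPK6ox roots. Groups overlapped in mpk6 and were apart in WT and MPK6ox. LHCB4.2 had the largest change of the 31 in MPK6ox roots, 3.28 ± 0.45 or 9.70-fold (adjusted p = 0.00014), and rose by 2.20 ± 0.49 (adjusted p = 0.0123) in WT. Its 12 shoot values ran from 14.16 to 14.42. Of the other measured CP29 genes, LHCB4.1 rose in MPK6ox roots (1.54, adjusted p = 0.00518), and LHCB4.3 changed by 0.10 there (adjusted p = 0.794).

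Each of the 4 photosystem and antenna genes lost its WT call when WT root hypoxia replicate 2 was left out, with adjusted p of 0.0668 for PSB27, 0.208 for PSBY, 0.141 for PSAE-1 and 0.151 for LHCB4.2. Without WT root normoxia replicate 1 it was 0.123 for PSBY, 0.0546 for PSAE-1 and 0.11 for LHCB4.2, and without normoxia replicate 2 it was 0.0666 for PSBY and 0.0564 for PSAE-1. Their MPK6ox calls and their calls in the mean of genotypes passed with any single array left out, the highest adjusted p being 0.04, for PSBY in MPK6ox.

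Carbon and photorespiration genes followed with smaller or less certain WT changes. HPR read 7.53 and 7.49 against 8.78 and 9.86 in WT roots, 9.06 and 7.26 against 8.50 and 9.67 in mpk6, and 6.46 and 6.70 against 8.95, 10.50 and 9.09 in MPK6ox. It rose by 2.93 ± 0.48 (adjusted p = 0.000704) in MPK6ox roots, whereas the WT change of 1.81 ± 0.53 had an adjusted p of 0.0505. SBPASE read 5.42 and 5.32 against 6.37 and 7.35 in WT, 6.38 and 5.26 against 6.35 and 6.74 in mpk6, and 5.05 and 4.99 against 6.40, 8.28 and 7.13 in MPK6ox roots. It rose by 2.25 ± 0.41 (adjusted p = 0.00181) in MPK6ox and had a change of 1.49 ± 0.45 (adjusted p = 0.0605) in WT. ALDH11A3 rose in MPK6ox roots (2.21, adjusted p = 0.00548) and had a change of 1.65 in WT (adjusted p = 0.0693). For these 3 enzymes the WT and MPK6ox groups did not overlap and the mpk6 groups did.

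Of the thylakoid and pigment genes, CaS read 5.12 and 5.31 against 6.33 and 7.90 in WT, 6.01 and 5.33 against 6.12 and 7.50 in mpk6, and 4.94 and 5.66 against 6.13, 8.65 and 7.11 in MPK6ox roots. Its hypoxia arrays were the higher ones in all 3 genotypes. It rose in MPK6ox by 2.00 ± 0.58 (adjusted p = 0.0382), a call lost when any 1 of 4 MPK6ox root arrays was left out (adjusted p = 0.268 for normoxia replicate 1, 0.0876 for normoxia replicate 2, 0.136 for hypoxia replicate 2 and 0.0693 for hypoxia replicate 3). LIL3:1 read 6.03 and 6.37 against 6.62 and 8.11 in WT, 7.03 and 6.09 against 6.86 and 7.35 in mpk6, and 6.18 and 6.13 against 6.68, 8.47 and 6.57 in MPK6ox. Most of its rise thus sat in replicate 2 of each hypoxia group, and it passed in the mean of genotypes alone (0.93 ± 0.28, adjusted p = 0.0231; 0.0939 without WT root hypoxia replicate 2). AT1G52220 rose in MPK6ox roots (1.40, adjusted p = 0.0272). CCL, the transcript with the widest shoot range, had changes of 1.54 in WT (adjusted p = 0.0861) and 1.36 in MPK6ox roots (adjusted p = 0.0775).

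Among the loci without a name, AT1G09310 had both the largest organ difference and the largest root change. It read 6.73 and 7.05 against 8.86 and 10.30 in WT roots, 8.46 and 6.16 against 7.63 and 9.64 in mpk6, and 4.74 and 6.93 against 7.75, 10.49 and 8.90 in MPK6ox roots. Its 12 shoot values ran from 13.39 to 13.87 with a median of 13.75. Its groups were apart in WT and MPK6ox but its arrays spread widely, and the change was 2.69 ± 0.86 in WT (adjusted p = 0.0796) and 3.21 ± 0.79 in MPK6ox (adjusted p = 0.0145; 0.242 without MPK6ox root normoxia replicate 1 and 0.0594 without hypoxia replicate 2). In the mean of genotypes it rose by 2.41 ± 0.48 (adjusted p = 0.00137). AT2G10940 read 6.52 and 6.84 against 8.15 and 9.70 in WT, 7.90 and 6.91 against 6.88 and 8.93 in mpk6, and 5.91 and 6.66 against 8.03, 10.02 and 9.33 in MPK6ox roots. It rose in WT (2.25, adjusted p = 0.041), a call lost in 14 of 25 fits with 1 array left out, and in MPK6ox (2.84, adjusted p = 0.0038; 0.0651 without MPK6ox root normoxia replicate 1). AT1G23130 was the 1 member whose WT arrays overlapped, with 4.69 and 5.38 against 5.20 and 7.58. It read 5.42 and 4.98 against 5.73 and 7.29 in mpk6 and 4.37 and 4.85 against 5.89, 8.22 and 6.0 in MPK6ox roots, and it passed in the mean of genotypes (1.59 ± 0.40, adjusted p = 0.00699).

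The remaining WT calls were AT2G26500 (2.1, adjusted p = 0.0247), AT2G42220 (1.95, adjusted p = 0.0165), AT5G16030 (1.83, adjusted p = 0.0212) and AT1G32470 (1.50, adjusted p = 0.0252). All 9 transcripts called in WT roots were also among the 19 called in MPK6ox roots. The changes over the 31 genes correlated between WT and MPK6ox at r = 0.835, between WT and mpk6 at 0.604 and between mpk6 and MPK6ox at 0.521, a description over 31 probe sets that share their arrays. The members with the smallest root changes in the mean of genotypes were AT1G51110 (0.54), AT1G21500 (0.72), AT3G20820 (0.80), AT3G61870 (0.84) and AT3G47070 (0.90), all past the threshold there. AT1G21500 read 5.26 and 5.29 against 5.66 and 6.53 in WT, 5.30 and 5.40 against 5.42 and 6.12 in mpk6, and 5.25 and 5.19 against 5.56, 6.75 and 6.16 in MPK6ox roots. Its change was small, and it passed in MPK6ox (0.93 ± 0.28, adjusted p = 0.0416, a call lost in 18 of 25 fits with 1 array left out). AT3G20820 read 6.90 and 7.03 against 7.69 and 8.30 in WT, 7.30 and 7.0 against 7.11 and 7.86 in mpk6, and 6.77 and 6.49 against 7.11, 8.79 and 7.03 in MPK6ox roots. AT3G61870 read 4.84 and 5.12 against 5.52 and 6.56 in WT, 5.82 and 4.96 against 5.71 and 5.81 in mpk6, and 4.98 and 5.13 against 5.24, 6.78 and 6.40 in MPK6ox. Both overlapped in mpk6 and were apart in the other genotypes. AT3G47070 read 5.02 and 4.67 against 5.32 and 6.13 in WT, 5.03 and 4.92 against 5.58 and 5.79 in mpk6, and 4.84 and 4.73 against 5.05, 6.83 and 5.83 in MPK6ox roots. AT1G51110 had the smallest change of the set, from 4.54 and 4.45 to 4.57 and 5.0 in WT roots, from 4.31 and 4.28 to 5.10 and 4.61 in mpk6, and from 4.11 and 4.42 to 4.65, 5.95 and 4.51 in MPK6ox. The lowest value in the table was 3.6 and the array medians ran from 6.87 to 7.07. Its adjusted p in the mean of genotypes of 0.0442 went above 0.05 in 18 of 25 fits with 1 array left out, up to 0.127. The call of AT3G20820 was lost in 4 of 25 such fits, with an adjusted p of up to 0.0691. Whether values this low lie above background was not assessed.

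**Figure D3:**
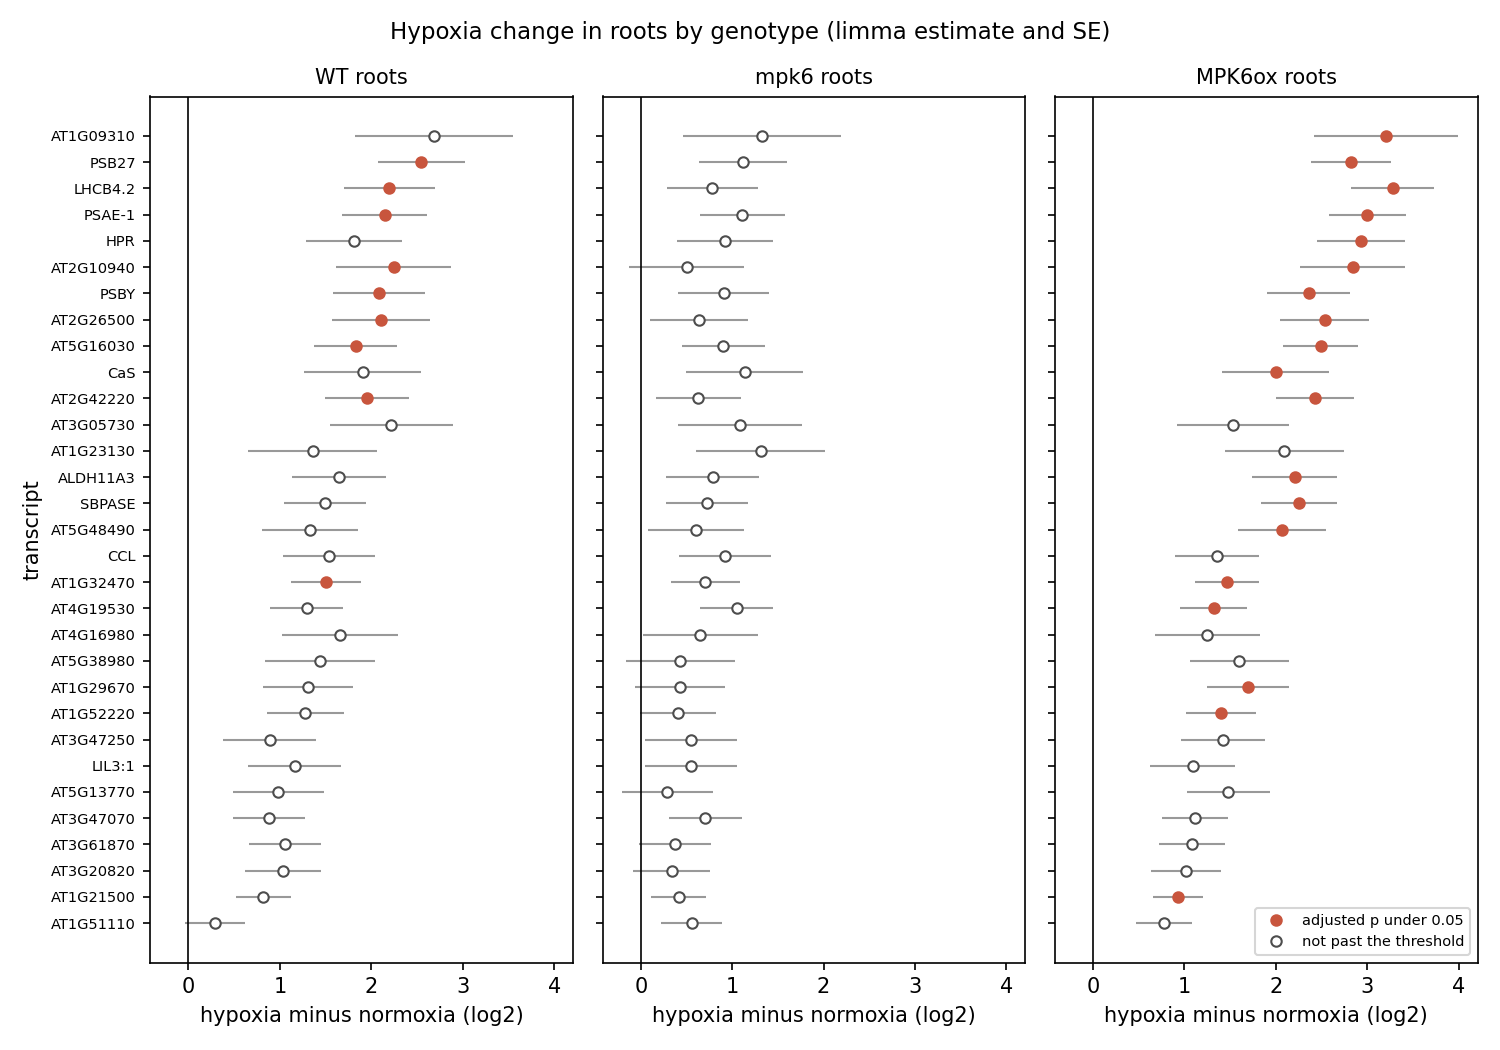
Hypoxia minus normoxia change in roots on the log2 scale (x axis) for each of 31 transcripts (y axis), as limma estimates with SE, in WT, mpk6 and MPK6ox (2 arrays a group, 3 for MPK6ox hypoxia). Filled points passed an adjusted p of 0.05, 9 in WT, 0 in mpk6 and 19 in MPK6ox, and every estimate is above 0.

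The 3 genotypes were not shown to differ. The difference of the root change between mpk6 and WT had a median of -0.86 over the 31, lower in mpk6 for 30 of them (AT1G51110 excepted), and 0 of 31 passed, as did 0 of 22746 probe sets (0.00%). Without mpk6 root hypoxia replicate 2, 47 of all probe sets were called in this difference, with 0 of 31 members among them. For MPK6ox minus WT the median was 0.38, with 0 of 31 and again 0.00% of all probe sets called. No member had an unadjusted p under 0.05 in either difference by limma, while 853 and 515 of all probe sets did. The SE of a difference had a median of 0.70 for mpk6, below the size of the median difference, and of 0.67 for MPK6ox, above it. The widest gap was that of AT2G10940, -1.74 ± 0.89 for mpk6 minus WT (adjusted p = 0.997). Levels in mpk6 and WT, compared directly, gave 0 of 31 calls by limma in normoxia roots, hypoxia roots, normoxia shoots, hypoxia shoots and their mean, where 0.0703%, 0.0484%, 0.00879%, 0.00440% and 0.369% of all probe sets were called. These levels also entered the rule that chose the members, WT hypoxia roots only through the MPK6ox limit and mpk6 hypoxia roots not at all. The counts over all probe sets rest on single arrays: the 11 called in hypoxia roots became 944 without mpk6 root hypoxia replicate 2 and 0 without replicate 1, and the 16 in normoxia roots became 0 without WT root normoxia replicate 2 and 36 without mpk6 root normoxia replicate 1. The members called stayed at 0 of 31 in these fits. At an unadjusted p under 0.05 there was 1 member in normoxia roots, AT5G16030 (1.03, adjusted p = 0.931), and 0 in the others. MPK6ox minus WT was part of the rule and is given without a test: its median was -0.35 in normoxia roots, 0.06 in hypoxia roots, 0.03 in normoxia shoots and -0.04 in hypoxia shoots.

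Single arrays held much of the spread in roots. The median of the 31 values was 6.38 and 6.30 in WT normoxia roots and 7.41 and 8.30 in WT hypoxia roots. It was 7.01 and 6.16 against 6.85 and 7.60 in mpk6, and 5.77 and 6.10 against 6.98, 8.77 and 7.37 in MPK6ox. Replicate 2 stood above replicate 1 for 31 of 31 members in WT hypoxia roots (median difference 0.97), for 29 in mpk6 hypoxia roots (1.00) and for 31 in MPK6ox hypoxia roots (1.78). In mpk6 normoxia roots the order was turned, with replicate 2 the higher for 2 of 31 and a median difference of -0.86. In the shoot groups replicate 2 was the higher for 8 to 19 of 31, with median differences from -0.16 to 0.11. With replicate 2 of all 3 hypoxia root groups left out, an alternative chosen after seeing the data, 6 members rose in WT, 1 in mpk6, 20 in MPK6ox and 25 in the mean of genotypes, where 2.02%, 6.99%, 4.19% and 8.92% of all probe sets were called higher. The median changes were then 1.12 in WT, 0.32 in mpk6 and 1.18 in MPK6ox, and 23 of the 31 changes were above 0 in mpk6 against 31 in WT and MPK6ox.

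Hypoxia arrays all lay above the normoxia arrays for 30 of 31 members in WT roots, all but AT1G23130, against 21.8% of all probe sets. The count was 11 in mpk6 roots, against 28.0%, and 30 in MPK6ox roots, all but AT4G16980, against 15.3%. The normoxia root arrays also chose the members, as low there, while all probe sets were not chosen so. How far that choice raises the member counts was not tested.

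**Figure D4:**
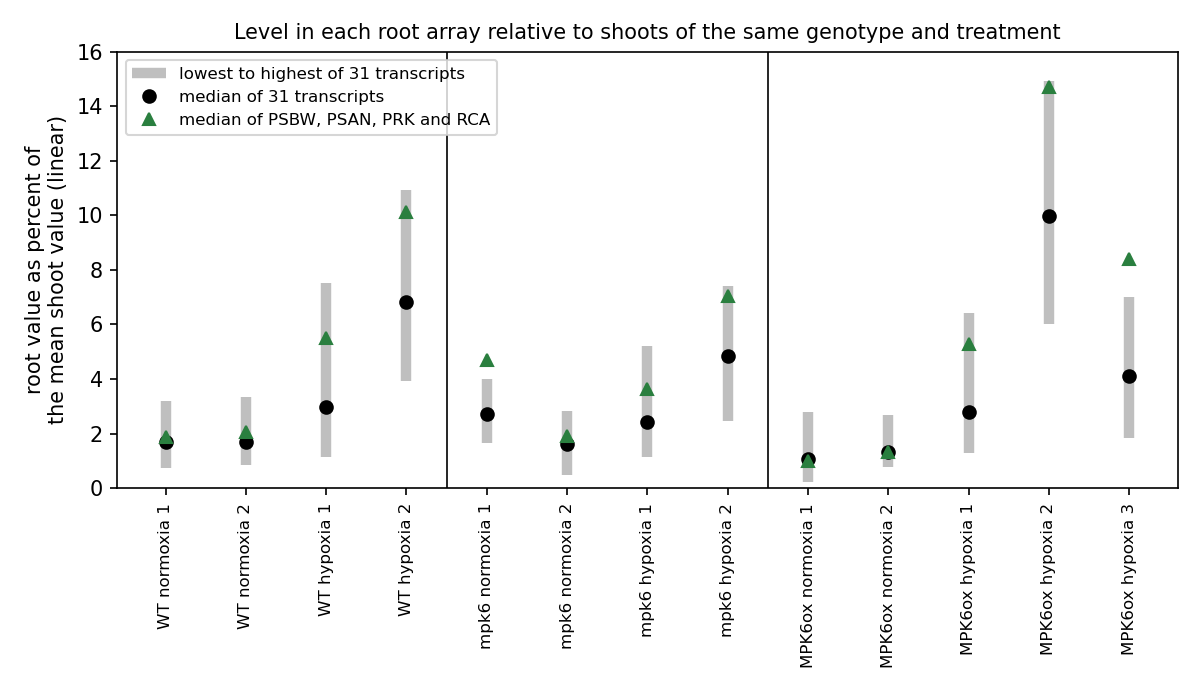
Level in each of 13 root arrays as a percent of the shoot level of the same genotype and treatment (y axis, linear scale). The shoot level is the mean of the log2 shoot values, converted to the linear scale. Dots are the median of the 31 transcripts, bars their lowest and highest, and triangles the median of PSBW, PSAN, PRK and RCA. Medians of the 31 lie between 1.09 and 2.74 percent in normoxia and between 2.44 and 9.96 percent in hypoxia.

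Set against the shoot level of the same probe set, the transcripts stood at a median of 1.68% and 1.70% in the WT normoxia root arrays and at 2.99% and 6.81% in the WT hypoxia root arrays. In mpk6 the values were 2.74% and 1.62% in normoxia and 2.44% and 4.83% in hypoxia. In MPK6ox they were 1.09% and 1.35% in normoxia and 2.80%, 9.96% and 4.12% in hypoxia. In WT and MPK6ox every hypoxia root array had a higher ratio than the normoxia root arrays, and in mpk6 the ratios overlapped. The shoot minus root difference in hypoxia, which the rule ties to the shoot level, had medians of 4.44, 4.84 and 4.37 in WT, mpk6 and MPK6ox, after 5.92, 5.5 and 6.53 in normoxia. The rule chose all 31 as at or above 5 in normoxia. How far that choice raises the ratios and lowers the difference in hypoxia, relative to normoxia, was not tested. In hypoxia 0 of 31 still reached 5 in all 3 genotypes, and 3, 13 and 2 did in WT, mpk6 and MPK6ox taken singly. Single arrays moved these counts, the WT count to 0 or 16 without root hypoxia replicate 1 or 2, the mpk6 count to 2 or 22 without root hypoxia replicate 1 or 2 and to 8 without shoot hypoxia replicate 2, and the MPK6ox count to 0, 14 or 0 without root hypoxia replicate 1, 2 or 3 and to 4 without shoot hypoxia replicate 1.

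Some other measured genes of green tissue moved with the set in the root arrays, and others did not. The stomatal and leaf polarity genes given below did not pass by limma in the mean of genotypes. PSBW, PSAN, PRK and RCA, genes of photosystem II, photosystem I, the Calvin cycle and Rubisco activation, averaged 7.41 and 7.54 in WT normoxia roots and 9.03 and 9.95 in WT hypoxia roots. They averaged 8.63 and 7.63 against 8.57 and 9.41 in mpk6 and 6.55 and 7.07 against 8.76, 10.58 and 9.42 in MPK6ox. Within each genotype the order of the hypoxia root arrays, and the raised mpk6 normoxia array 1, were thus the same as for the medians of the 31. By limma all 4 rose in WT and in MPK6ox roots and 0 of 4 passed in mpk6, where the lowest adjusted p was 0.145, for PRK, and 2 of 4 had an unadjusted p under 0.05. The whole list of photosynthesis, pigment and photorespiration genes outside the set held 20 measured genes. Of these, 6 rose in WT roots, 1 rose and 1 fell in mpk6, 11 rose in MPK6ox and 12 rose in the mean of genotypes. Only the members were taken out of the list, so that the 4 genes above count again where listed. GLYK, the glycerate kinase that ends photorespiration, was the one that rose in mpk6 (1.32, adjusted p = 0.0229), and GLDT, a subunit of glycine decarboxylase, the one that fell (-0.69, adjusted p = 0.0435). ATPC1, a subunit of the chloroplast ATP synthase, rose in WT (0.90, adjusted p = 0.014), as did PLGG1, the plastid glycolate and glycerate transporter (1.10, adjusted p = 0.0331). Genes of the same list with small changes in the mean of genotypes were FBN2 (0.10, adjusted p = 0.416), SBE2.2 (-0.01, adjusted p = 0.979) and CHLI2 (0.29, adjusted p = 0.213). The part of shoot tissue or shoot RNA in the root samples in these changes was not tested.

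Root markers went the other way in the same arrays. Over all probe sets, 3.95% were called lower in WT roots, 6.30% in mpk6, 5.49% in MPK6ox and 14.8% in the mean of genotypes. EXPA7 read 9.39 and 9.01 in WT normoxia roots and 7.63 and 7.05 in WT hypoxia roots, and EXPA18 10.39 and 9.80 against 7.89 and 7.31. By limma both fell in the roots of all 3 genotypes, EXPA7 by 1.86, 2.39 and 1.98 and EXPA18 by 2.49, 2.56 and 2.04 in WT, mpk6 and MPK6ox, while PYK10 at -0.44, -0.24 and -0.28 did not pass. The hypoxia treatment itself was plain in every root array, with CML38, a calmodulin-like sensor induced by low oxygen, at 6.49 to 7.13 in normoxia and 12.56 to 13.00 in hypoxia. The difference between 3' and 5' signal of the control transcripts, a sign of RNA integrity, averaged 3.34 to 3.84 over the 25 arrays. The lowest mean was in WT root hypoxia replicate 2. In mpk6 root hypoxia replicate 1 the mean of 3.76 hid a discordance. Its actin difference was the lowest of all arrays at 4.84, and its GAPDH and ubiquitin differences were the highest at 3.41 and 3.04. The part of RNA integrity in the changes was not tested.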

How the data were processed

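Expression was deposited by the authors on the log2 scale. The submitters' processing notes name RMA as the method, with no version. Labelled cRNA came from a 2-cycle kit, per the labels' protocols. The values were used as deposited, without rescaling or a filter on dim probe sets. Of 22810 probe sets, 64 AFFX controls were left out. The platform's probe table gave 13513 of the rest 1 gene, 503 several, and the other 8730 were not named here. Of the first, 13436 matched the TAIR10.1 annotation by gene ID.

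A limma model of 12 group means was fitted to all 22746 probe sets (limma 3.58.1, R 4.3.3, 13 residual and 3.41 prior degrees of freedom). P-values of each of 11 comparisons were adjusted by Benjamini and Hochberg over all probe sets. Errors of changes are standard errors. The model was tested on simulated data. The number of arrays limits the precision.

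The members and the gene lists were chosen with earlier results of these data known. By the naming rule, values in every root array went to the 5 members with the largest organ difference, the 5 with the largest and the 5 with the smallest mean root change, and members of the functional lists. The 17 gene lists, 9 of photosynthesis and plastid function and 8 of other shoot, root, clock and low-oxygen genes, were covered only in part by single-gene probe sets, and 0 of 24 cuticle genes were. A promoter motif search was planned but not analysed here. Alternatives were other thresholds of the rule, other normalizations and model settings, a dim-probe filter, a photosynthesis covariate and each array left out.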

Additional observations from a re-analysis of the deposited data

How the results depend on the processing

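All 31 root changes stayed above 0 in WT, MPK6ox and the mean of genotypes under each alternative except the photosynthesis covariate. The 9 calls in WT roots became 16 with the replicate block, 1 with organs fitted separately and 0 with the mean of PSBW, PSAN, PRK and RCA in each root array as a covariate, and ranged from 0 to 19 with each array left out in turn. The 19 calls in MPK6ox roots became 1 with the covariate and ranged from 8 to 27 with each array left out. The 31 calls in the mean of genotypes became 1 with the covariate and ranged from 24 to 31 with each array left out. The 0 calls in mpk6 roots became 1 with replicate 2 of all hypoxia root groups left out and ranged from 0 to 1 with each array left out. Calls among members in every difference between lines, and in mpk6 against WT, were 0 throughout. Calls over all probe sets also moved when a single array was left out. The member count was 48 at a threshold of 4.5 and 15 at 5.5, and 21 to 33 with each array left out. The count at or above 5 in hypoxia ranged from 0 to 2.

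The covariate genes themselves rose with hypoxia, so the covariate takes up part of the hypoxia effect by construction, and its values do not measure shoot material. With it 7, 8, 4 and 7 of the 31 changes were above 0 in WT, mpk6, MPK6ox and the mean of genotypes. Of the named members with a call, those that turned below 0 in WT were at -0.067 for PSBY and -0.367 for AT2G10940. Those in MPK6ox were at -0.0521 for PSB27, -1.94 for AT1G09310, -0.589 for AT1G21500, -0.61 for PSBY, -0.149 for HPR, -0.767 for AT2G10940, -0.329 for SBPASE and -1.73 for CaS. Those in the mean of genotypes were at -1.09 for AT1G09310, -0.308 for AT1G21500, -1.1 for AT1G23130, -0.304 for AT1G51110, -0.229 for PSBY, -0.201 for HPR, -0.582 for AT2G10940, -0.636 for AT3G20820, -0.369 for AT3G47070, -0.261 for SBPASE, -0.578 for AT3G61870, -0.981 for LIL3:1 and -0.844 for CaS.

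Replicate numbers were not used as pairing in the main fit, so any spread shared by replicate number stayed in its error. Deviations of same-numbered arrays correlated at -0.03 to 0.67 over 66 pairs of groups, 63 of them over 0 and 55 over 0.1. Among members the block moved no other count of calls by over 1.5 times. Over all probe sets it moved the calls from 1479 to 2579 in WT roots, from 2278 to 3686 in mpk6 roots and, for mpk6 minus WT, from 16 to 43 in normoxia roots, from 11 to 72 in hypoxia roots and from 84 to 205 in the mean of pairs. The mean over pairs could not be fitted with organs separate. With 2 or 3 arrays a group, changes of low transcripts in roots are the least certain, and signal over background was not assessed.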

Other observations

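Chloroplast-encoded transcripts, 69 probe sets, had median root changes of 0.27 in WT, -0.01 in mpk6 and 0.74 in MPK6ox, and by limma 1, 0 and 16 of them rose (13, 2 and 37 at an unadjusted p under 0.05). The 6 genes that met the organ condition but not the shoot stability limit had median root changes of 1.22, 1.05 and 1.69, and 1, 0 and 2 of them rose (3, 3 and 5 at an unadjusted p under 0.05). The mirror set held 7 root-restricted transcripts found by the organ condition alone, with the organs exchanged and no stability or MPK6ox limit. It had median changes of -0.96, -1.13 and -0.86 in roots of the 3 genotypes, and 3, 5 and 4 of its members fell. The normoxia root arrays also chose this set, as high there, and how far that lowers its changes was not tested. Its strongest fall in the mean of genotypes was AT1G34510 (-3.12 ± 0.42, adjusted p = 3.33e-05).

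Of the 4 measured stomatal genes, EPFL9, which encodes a peptide that promotes stomata, FAMA, MUTE and SPCH, 0 passed by limma in WT, mpk6, MPK6ox or the mean of genotypes, with mean changes of 0.42, 0.15, 0.11 and 0.02, and 0, 0, 0 and 1 had an unadjusted p under 0.05. The leaf polarity genes YAB3 and YAB5 had mean changes of 0.35 and 0.11 and did not pass. The thionin gene THI2.2 rose in the mean of genotypes (0.44, adjusted p = 0.0353) and THI2.1 did not (0.15). The clock gene GI (-0.81, adjusted p = 0.0441) and the glucosinolate synthesis gene BCAT4 (-0.58, adjusted p = 0.0275) fell there. Of the 3 low-oxygen genes, CML38, HRA1 and PDC2, all rose in roots of each genotype.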
